A study of Homo sapiens with 4 samples.

Results

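KP4 is an established human cell line derived from pancreatic ductal adenocarcinoma. The comparison described here set KP4 control cells given FOLFIRINOX for 96 h against control cells given the DMSO vehicle for 96 h. The mixture held 25 nM SN-38, 10 µM of an agent that the labels write as 5-F, and 5 µM oxaliplatin. These groups are 2 of the study's 4 GEO samples, and their 6 numbered columns of stranded read counts are 6 of its 12 libraries, 3 per group. The other samples are E5 cells, called resistant in the study's title, which met the same vehicle or mixture for 96 h. The design text speaks of 5 cycles of treatment, and the labels do not settle what the E5 vehicle cells met before. All 4 groups share the KP4 background, the growth medium and the DMSO or drug exposure time, and no engineered allele is named for any of them. Every row with an Ensembl gene identifier was taken, 60651 genes, the same as in the whole series. Of these, 15636 held enough reads to be tested and 12650 of the tested genes were protein coding. Of the 45015 genes not tested, 27709 had 0 reads in the control libraries, 13268 had 1 to 10 reads and 4038 had more than 10.

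FOLFIRINOX is a drug combination given to patients with pancreatic cancer. SN-38 is the active form of irinotecan and traps topoisomerase I on DNA, so that moving replication forks meet broken strands. Oxaliplatin forms platinum crosslinks in DNA, and the clinical regimen adds fluorouracil, an antimetabolite that blocks thymidylate synthase and is built into RNA. Cells answer such damage through the ATM and ATR checkpoint kinases, through p53 where it is intact, and through NF-kappaB, which switches on chemokines and survival genes. Lipid synthesis is governed by the SREBP transcription factors, which are held in the endoplasmic reticulum when sterols are plentiful. TXNIP and the related ARRDC4 are alpha-arrestins whose genes are read by MondoA, a sensor of glucose phosphates.

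Levels are given as CPM, read counts per 1000000 gene reads after TMM scaling, and values of 3 libraries are listed in the order of their numbers 1, 2 and 3. Fold changes are on the log2 scale, FOLFIRINOX over vehicle, ± SE. The words rose and fell are kept for genes where edgeR's quasi-likelihood test gave an adjusted p (Benjamini-Hochberg over all tested genes) under 0.05. The labels do not tell whether the 3 columns of a GEO sample are separate cultures, so p-values measure only the spread between these columns, which may be technical. The RNA came from bulk cultures, in which fewer cells of a type and less RNA per cell cannot be told apart. A count of 0 in all libraries of a group allows a level of up to 3 counts, or 0.0633 CPM under vehicle and 0.0654 CPM under FOLFIRINOX, for counting error only.

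Reads assigned to genes numbered 9230058, 21775030 and 18061835 in the vehicle libraries and 7359034, 18648486 and 17094249 in the FOLFIRINOX libraries. Pairs of libraries within a group differed by 1.604 to 18.9 times the variance of counting alone. FOLFIRINOX library 2 stood apart, at 9.66 and 18.9 times against the others of its group, and vehicle libraries 2 and 3 differed by 11.3 times. Mitochondrial genes took 4.87% to 5.48% of the reads in all 6 libraries. The labelled cell type was checked against its markers. KRT18, KRT8 and SOX9, found in ductal cells, stood at 171, 31.8 and 51.2 CPM in the vehicle group, whereas KRT19, EPCAM, CDH1 and MUC1 stood at 1.099, 0.599, 1.23 and 1.98 CPM and S100P and CEACAM6 held 2 reads each over the 6 libraries. The mesenchymal filament gene VIM stood at 2473 CPM. PRSS1, CPA1 and INS, which mark acinar and islet cells, held 0 reads. Over the lists of other cell types, 0 of 8 acinar, 1 of 6 endocrine, 4 of 7 fibroblast, 4 of 5 endothelial and 1 of 8 immune markers held enough reads to be tested. PTPRC, the leukocyte phosphatase CD45, was at 54.7, 52.4 and 48.6 CPM under vehicle and 13.2, 9.43 and 11.5 CPM under FOLFIRINOX, whereas the T cell marker CD3E held 0 reads and CD14, CD68 and LYZ held 18, 20 and 13 reads over the 6 libraries. The part of such cells in any result was not tested.

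The drug moved most of the measured transcriptome. Of 15636 tested genes 65.3% passed: 5094 rose (32.6%) and 5109 fell (32.7%), and the groups' libraries did not overlap for 67% of genes. With a fold of at least 2 as well, 19.9% passed: 1833 genes rose (11.7%) and 1280 fell (8.19%). The split of higher and lower calls depended on the scaling. Scaling by total counts or using the authors' FPKM raised the median of all genes by 0.134 to 0.184 on the log2 scale, and the share of higher calls among all calls, 49.9% here, was then 60.9% and 66.9%. Changes below are relative to the TMM scale, on which the median log2 fold change over all tested genes was 0.0044. The counts of each gene list below stand against the 32.6% and 32.7% of all tested genes that rose and fell.

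**Figure D1:**
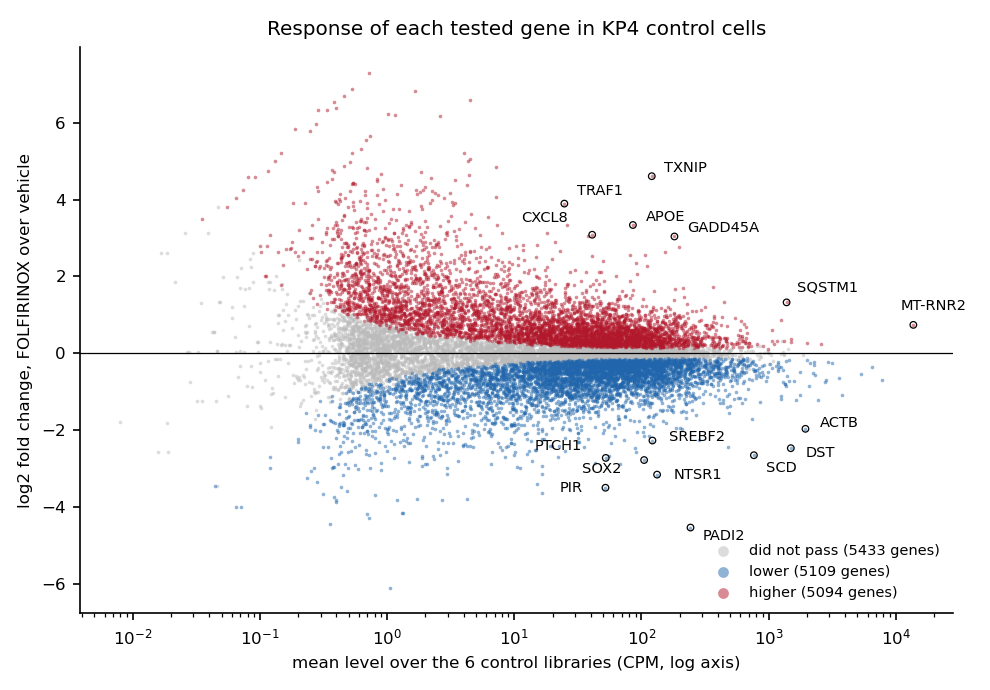
Each point is 1 of 15636 tested genes, with its mean level over the 6 control libraries (CPM, log axis) against its log2 fold change of FOLFIRINOX over vehicle; red genes rose, blue genes fell and grey genes did not pass the test. On this TMM scale genes above 100 CPM lie more often below 0 than above it, and TXNIP, SCD, DST, ACTB and PADI2 stand far from 0 at high levels.

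On the TMM scale abundant transcripts fell more often than they rose. Of 2536 genes with a mean over 100 CPM, 26.4% rose and 45.5% fell. Of 2151 genes under 1 CPM, 29.8% rose and 11.3% fell. Genes under 1 CPM can reach the minimum of reads through the group where they are high, which can tilt their shares. The median log2 changes of these classes were -0.131 and 0.348. Total-count scaling raised the median of all genes by 0.136, about the size of the first value. The shares were not recounted on that scale, so the direction for abundant genes holds for TMM only. On that scale the genes that rose gained 96642 CPM in all, and those that fell decreased by 186573 CPM. These sums depend on the scaling, since a larger TMM factor lowers every CPM value of a library. The factors were 0.963 to 0.975 in the vehicle libraries and 1.051 to 1.083 in the FOLFIRINOX libraries. ACTB, which encodes cytoplasmic beta-actin and often serves as a reference gene, was at 3130.3, 2941 and 3242 CPM in the vehicle libraries against 765, 855 and 758 CPM in the FOLFIRINOX libraries. The libraries of the groups did not overlap, and the fall was -1.97 ± 0.064 (edgeR adjusted p = 3.7e-13). GAPDH, the glycolytic enzyme used in the same way, fell by 0.37, from 7283 ± 500.4 to 5654 ± 286 CPM (n = 3 libraries each). A set of cytoskeletal transcripts shared the direction of ACTB: ACTG1, the gamma-actin gene, fell from 3413 ± 264 to 1476 ± 146 CPM, and TUBB, a beta-tubulin, from 2297 ± 99.3 to 988 ± 39.2 CPM. The actin genes have processed pseudogenes of near-identical sequence, so reads could be split between copies and these values are uncertain to that extent.

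Other large losses came from a linker protein, a kinectin and metabolic genes. DST, dystonin, a very long protein that joins filament systems, was at 2546, 2923 and 2130.2 CPM under vehicle and 542, 310.3 and 519 CPM under FOLFIRINOX, and no vehicle library came near a drugged one. Its log2 change was -2.47 ± 0.22, and FOLFIRINOX library 2 was the lowest of its group while vehicle library 3 was the lowest of the vehicle group. KTN1, a kinesin receptor of the endoplasmic reticulum, fell from 1739.7 ± 237 to 764 ± 199 CPM. TXNRD1, the thioredoxin reductase that keeps thioredoxin reduced, fell from 2414 ± 48.98 to 1129 ± 33.6 CPM, and HSPA8, the constitutive heat shock protein of the HSP70 family, from 3493 ± 92.6 to 2089.9 ± 30.5 CPM.

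Among the abundant transcripts that rose, the largest gain was MT-RNR2, the mitochondrial large ribosomal RNA, from 10307 ± 196 to 17188 ± 923 CPM (log2 0.74 ± 0.063). Libraries from an mRNA kit hold only the captured part of this RNA. SQSTM1, the autophagy receptor p62, was at 779.9, 755 and 838 CPM in the vehicle libraries against 1877, 2188 and 1872 CPM in the FOLFIRINOX libraries. The groups were far apart and SQSTM1 rose by 1.32 ± 0.065 (edgeR adjusted p = 4.4e-11). ODC1, which makes the polyamine putrescine, was at 869, 859.9 and 916 CPM under vehicle and 1579, 1639 and 1616 CPM under FOLFIRINOX and rose by 0.87 ± 0.051. ETS1, a transcription factor, stood at 256, 259.7 and 248 CPM under vehicle and at 636, 624 and 653 CPM with the drug. Its libraries varied little within each group, and it rose by 1.33 ± 0.051. UPP1, the uridine phosphorylase, and CYCS, cytochrome c, rose by 0.93 ± 0.069 and 0.83 ± 0.086, and the snoRNA host SNHG1 rose from 169 ± 6.41 to 556 ± 8.699 CPM.

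Gene class and gene span went with the direction of change. Of 2083 long noncoding RNA genes tested, 46.1% rose and 10.6% fell, with a median of 0.54, and 33.4% rose at least 2-fold. Of 12650 protein-coding genes, 30.9% rose and 37.5% fell, with a median of -0.055. The noncoding genes were low, with a median level of 1.04 CPM under vehicle against 31.8 CPM for protein-coding genes. Level and class were not separated. Genes this low can reach the minimum of reads through the group where they are high, which can tilt their shares. Protein-coding genes spanning under 5 kb rose in 36.4% and fell in 31.0% of 953 cases, and those of 200 kb and over rose in 21.6% and fell in 47.7% of 1036 cases. The median log2 change went from 0.047 to -0.247 across the span classes. Over 12650 protein-coding genes the Spearman rank correlation of span and log2 change was -0.106, a weak relation across genes that share libraries and are not independent. The median over all tested genes of 200 kb and over was -0.167 here and 0.047 with log2(FPKM + 1), where all genes are shifted up by 0.134.

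**Figure D2:**
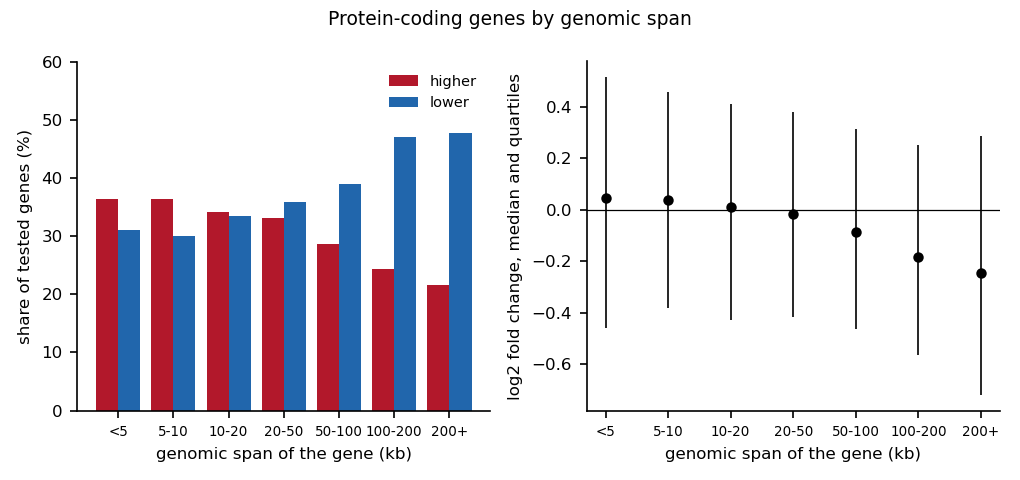
Protein-coding genes grouped by genomic span (kb). The left panel gives the share of tested genes that rose (red) and fell (blue) in each class, in percent, and the right panel the median log2 fold change with the quartiles as bars. The share that fell goes from 31.0% under 5 kb to 47.7% at 200 kb and over.

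The noncoding genes with the highest folds were faint under vehicle. AC003092.1 stood at 0, 0.0955 and 0.114 CPM under vehicle and 9.002, 8.93 and 8.98 CPM with the drug, AC090192.2 rose from 0.449 ± 0.267 to 13.9 ± 2.24 CPM and AP002478.1 from 0.8204 ± 0.314 to 13.5 ± 0.326 CPM. LINC00702 and HECW2-AS1 rose by 4.38 ± 0.26 and 3.87 ± 0.29. In the other direction, DLEU2, the host transcript of the miR-15a and miR-16-1 hairpins, was at 23.2, 21.1 and 20.5 CPM under vehicle and 2.96, 2.93 and 4.404 CPM under FOLFIRINOX. Every drugged library was below every vehicle library, and DLEU2 fell by 2.61. LINC01963 fell from 37.6 ± 4.46 to 7.02 ± 0.727 CPM and LINC00641 from 30.3 ± 2.48 to 9.37 ± 1.72 CPM. MTCO2P12, a nuclear copy of a mitochondrial gene, was listed with a larger fall still, but its value rested on vehicle library 2, with 0.667, 8.02 and 0.858 CPM in the vehicle libraries, and it may share reads with MT-CO2. Without that library MTCO2P12 did not pass (log2 -1.57, edgeR adjusted p = 0.20).

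Genes that bring the agents in, activate them or hold their targets mostly fell or did not pass the test. Of 17 tested genes of fluoropyrimidine uptake, activation and breakdown, 4 rose and 10 fell, with a median of -0.21 that was above 0 (0.039) with FPKM values. DPYD, the enzyme that breaks fluorouracil down, was at 169.6, 164 and 156 CPM in the vehicle libraries against 64.8, 58.1 and 67.6 CPM in the FOLFIRINOX libraries. The groups did not overlap and DPYD fell by 1.36 (edgeR adjusted p = 1.2e-10). TK1, thymidine kinase, fell by 0.92, and the nucleoside carrier SLC29A2 by 1.63 from 8.86 CPM. TYMS, thymidylate synthase, had a log2 change of -0.095 ± 0.060 that did not pass. UPP1, which can attach ribose to uracil analogues, rose, as given above, while TYMP, the related thymidine phosphorylase, held 7 reads over the 6 libraries and was not tested.

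TOP1, the target of SN-38, was at 451, 479 and 454 CPM under vehicle and 571, 511 and 592 CPM under FOLFIRINOX, with each drugged library above each vehicle library, and rose by 0.27 ± 0.071. Of 15 tested genes that repair topoisomerase adducts and broken strands, 6 rose and 3 fell. MUS81 and EME1, partners in a nuclease that cuts stalled forks, rose by 0.69 ± 0.091 and 0.67 ± 0.083, whereas LIG3, a ligase, TDP1, which frees DNA from trapped topoisomerase I, and PARP1, the sensor of strand breaks, fell by 0.92, 0.61 and 0.55. CES2, a carboxylesterase that activates irinotecan, is not needed for SN-38 itself and fell by 0.38. Its mean in the authors' FPKM, in which all genes are shifted up, was 12.9 ± 2.07 under vehicle and 12.9 ± 1.76 with the drug, and CES2 did not pass on log2(FPKM + 1) (limma adjusted p = 0.98). Among 17 tested genes of platinum uptake, export and thiol defence, 2 rose and 7 fell. GSTP1, a glutathione transferase, was at 186, 166 and 205 CPM under vehicle and 107, 121 and 102 CPM with the drug, and fell by 0.75. The glutathione synthetase GSS fell by 0.84.

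Of 10 tested ABC efflux pumps, 2 rose and 3 fell. ABCC2, which exports glutathione conjugates, rose from 4.27 ± 0.166 to 9.1999 ± 0.109 CPM, and ABCG2, which exports SN-38 among other drugs, rose from 36.7 ± 2.02 to 54.9 ± 2.28 CPM. ABCC1 fell by 0.82 and ABCA3 by 1.54. ABCB1 stood at 0.652 CPM under vehicle and had a change of 0.31 ± 0.29 that did not pass. Without FOLFIRINOX library 2 that change was 0.51, which did not pass either.

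Single DNA damage genes moved in both directions. Of 21 checkpoint genes, 7 rose and 8 fell, shares near the background of all genes. TP53BP1, a scaffold at double-strand breaks, was at 180.4, 205 and 179 CPM under vehicle and 60.96, 55.2 and 62.1 CPM under FOLFIRINOX and fell by 1.67 (edgeR adjusted p = 1.8e-11). It was the only checkpoint gene of the list past a 2-fold change. H2AX, the histone phosphorylated at breaks, and the kinase ATR fell by 0.87 and 0.79, and the phosphatase CDC25C rose by 0.63. Of 20 Fanconi anaemia genes, 7 rose and 8 fell, with PALB2 and RAD51C at 0.71 ± 0.086 and 0.66 ± 0.075 and the nuclease scaffold SLX4 at -0.92 ± 0.10.

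Targets of p53 did not move as a block. Of 28 tested members, 10 rose and 12 fell, and the median of -0.089 was above 0 with total-count scaling (0.049) and with FPKM (0.14 and 0.20). GADD45A, a stress gene that binds PCNA, was at 37.6, 40.3 and 40.1 CPM in the vehicle libraries against 320.4, 341 and 311 CPM in the FOLFIRINOX libraries. The lowest drugged library was far above the highest vehicle library, and GADD45A rose by 3.04 ± 0.078 (edgeR adjusted p = 2.4e-14). CDKN1A, the p21 inhibitor of cyclin-dependent kinases, rose from 39.8 ± 3.36 to 63.6 ± 7.34 CPM, a log2 change of 0.69 ± 0.090. MDM2, the ubiquitin ligase of p53 and a p53 target itself, was at 143, 149 and 131 CPM under vehicle and 63.3, 60.4 and 71.3 CPM under FOLFIRINOX, with no overlap, and fell by 1.12. PMAIP1, the BH3 protein NOXA, and the nuclease AEN rose by 1.25 ± 0.11 and 1.14 ± 0.078, whereas FDXR, TP53INP1 and GDF15 fell by 1.97, 1.35 and 0.89.

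Replication genes leaned downward. Of 30 licensing and fork genes, 17 fell and 6 rose, with a median of -0.31. LIG1, the ligase of Okazaki fragments, fell from 54.9 ± 3.36 to 21.7 ± 2.797 CPM, PCNA, the sliding clamp, from 191 ± 5.23 to 107 ± 3.14 CPM and the helicase subunit MCM7 from 448 ± 31.9 to 256 ± 13.6 CPM. Of 21 genes of G1 control, 4 rose and 10 fell, among them CDKN2C and CCND2, which fell by 1.51 and 1.48. Mitotic genes showed smaller changes. Of 27 tested, 10 rose and 5 fell, none past a 2-fold change, with a median of 0.068. MKI67, the proliferation antigen Ki-67, was at 1676, 1811 and 1589 CPM under vehicle and 1015, 908 and 1005 CPM under FOLFIRINOX and fell by 0.79.

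Of 18 tested replication-dependent and linker histone genes, 12 rose, 9 of them at least 2-fold, and 1 fell, with a median of 0.95. H2BC15 was at 3.78, 2.77 and 3.49 CPM under vehicle and 15.9, 18.1 and 19.6 CPM under FOLFIRINOX, and H2AC6, the most abundant H2A gene of the list that rose, went from 34.4 ± 2.34 to 128 ± 2.24 CPM. H1-10, a replication-independent linker histone, was the member that fell, by 1.11. Most replication-dependent histone transcripts lack a poly(A) tail and the kit selects mRNA, so the values cover only captured transcripts. The genes of these clusters are near-identical copies, and how shared reads were divided is uncertain. Of 16 histone genes with a RefSeq promoter window, 14 hold a CCAAT box (letters CCAAT, either strand), against 39.7% of 27305 genes with windows. A window runs from 250 bases before the start site to 50 after it.

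Single genes of cell death changed on both sides. Of 16 BCL2 family genes, 7 rose and 5 fell (43.8% and 31.2%), not far from the 32.6% and 32.7% of all tested genes. BCL2A1, a survival protein, rose from 7.003 ± 0.726 to 20.6 ± 1.22 CPM, while BCL2L11, which encodes the killer protein BIM, fell from 45.2 ± 3.12 to 21.1 ± 0.194 CPM. Of 19 death receptor and caspase genes, 8 rose and 6 fell, shares likewise not far from those of all genes. BIRC3, the inhibitor of apoptosis cIAP2, was at 54.8, 54.6 and 42.97 CPM in the vehicle libraries against 368, 277 and 389 CPM in the FOLFIRINOX libraries, and BIRC2, its neighbour on chromosome 11 and cIAP1, rose by 1.19 ± 0.11. Receptors of TRAIL, a death ligand, rose: TNFRSF10D, a decoy receptor, by 1.47 ± 0.071 and TNFRSF10A by 0.92 ± 0.067. APAF1, the core of the apoptosome, and CASP6 fell by 1.29 and 1.07.

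NF-kappaB genes rose in the main. The pathway works through RELA and NFKB1 dimers held by the inhibitor NFKBIA and through RELB and NFKB2 dimers, and it drives its own inhibitors. Of 20 tested members, 15 rose, against 32.6% of all tested genes, 8 of them at least 2-fold, and 2 fell, with a median of 0.82. RELB was at 12.3, 10.8 and 13.6 CPM under vehicle and 66.5, 79.2 and 63.2 CPM under FOLFIRINOX, with no overlap between groups, and rose by 2.52 ± 0.11 (edgeR adjusted p = 1.4e-11). NFKB2 was at 43.5, 41.4 and 41.2 CPM under vehicle and 127, 143 and 123 CPM under FOLFIRINOX and rose by 1.65 ± 0.075. Among the signal adaptors, TRAF1 was at 2.56, 3.39 and 3.204 CPM in the vehicle libraries against 41.2, 52.1 and 46.2 CPM in the FOLFIRINOX libraries. It showed the largest rise of the list at over 1 CPM, 3.89 ± 0.13 (edgeR adjusted p = 3.4e-13). The feedback inhibitors TNFAIP3, known as A20, and NFKBIA, known as IkappaB alpha, rose by 1.38 ± 0.086 and 1.10 ± 0.079, whereas RELA rose by 0.47. BCL3, a nuclear IkappaB protein, and TNFAIP2 were the members that fell, by 1.47 and 1.60.

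Chemokine genes had the largest upward median of the lists of at least 10 tested genes. Of 11 chemokine and receptor genes with enough reads, 10 rose, 9 of them at least 2-fold, and 0 fell, with a median of 2.01. Another 10 of the 21 listed did not hold enough reads, and genes this low pass the filter through the group where they are high. CXCL8, interleukin-8, a neutrophil attractant, was at 10.5, 8.31 and 7.78 CPM under vehicle and 70.9, 71.3 and 77.2 CPM under FOLFIRINOX. Each drugged library was above 70 CPM and each vehicle library under 11 CPM, and CXCL8 rose by 3.08 ± 0.097 (edgeR adjusted p = 2.6e-13). CXCL5, a ligand of the same receptor, was at 1.22, 1.43 and 1.54 CPM under vehicle and 7.59, 10.7 and 10.4 CPM under FOLFIRINOX. CXCL1 rose from 3.39 ± 0.726 to 14.02 ± 2.56 CPM, with CXCL1, CXCL2 and CXCL3 being near-identical neighbours whose reads may be shared. CXCR4, the receptor of CXCL12, rose from 0.177 ± 0.0601 to 3.66 ± 0.873 CPM. CCL2, the monocyte attractant and the most abundant chemokine here at 74.1 CPM, rose by 0.28.

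NF-kappaB dimers bind kappaB sites. The 250 bases before the RefSeq start site are shown for 4 of these genes, which rose and hold such letters. The windows searched also held 50 bases after the start site. Capitals mark the kappaB site in its long form (GGG, any 2 bases, then TTTCC) or, in CXCL8, the RELA form GGAATTTCC together with an AP-1 site TGANTCA. Both strands were searched, the RELA form can lie inside the long form, and all sequences read 5′ to 3′ on the gene's own strand from RefSeq, build GRCh38.p14.
CXCL8 (chr4:73740319-73740568, plus strand): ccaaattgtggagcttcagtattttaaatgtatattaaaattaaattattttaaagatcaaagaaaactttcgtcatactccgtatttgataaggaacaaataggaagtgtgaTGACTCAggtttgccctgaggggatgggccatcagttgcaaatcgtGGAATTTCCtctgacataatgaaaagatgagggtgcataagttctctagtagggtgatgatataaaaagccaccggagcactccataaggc
CXCL5 (chr4:73998678-73998927, minus strand): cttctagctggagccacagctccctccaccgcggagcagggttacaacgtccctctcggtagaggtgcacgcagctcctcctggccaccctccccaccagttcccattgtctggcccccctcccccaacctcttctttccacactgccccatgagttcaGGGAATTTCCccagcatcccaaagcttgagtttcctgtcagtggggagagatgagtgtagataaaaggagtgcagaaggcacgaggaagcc
NFKB2 (chr10:102394328-102394577, plus strand): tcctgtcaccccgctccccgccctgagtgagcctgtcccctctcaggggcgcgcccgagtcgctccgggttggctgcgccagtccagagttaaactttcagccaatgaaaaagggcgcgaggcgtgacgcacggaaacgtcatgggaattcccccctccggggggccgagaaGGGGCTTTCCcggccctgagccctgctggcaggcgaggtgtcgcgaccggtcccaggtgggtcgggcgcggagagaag
TNFAIP3 (chr6:137867009-137867258, plus strand): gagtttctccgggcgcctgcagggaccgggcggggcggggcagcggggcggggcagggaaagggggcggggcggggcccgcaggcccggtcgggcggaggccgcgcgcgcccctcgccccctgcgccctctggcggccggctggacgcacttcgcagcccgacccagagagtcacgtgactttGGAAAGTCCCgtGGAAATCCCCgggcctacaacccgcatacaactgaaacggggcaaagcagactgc

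The RELA form was found in the windows of 5 of 7 tested chemokine genes with a window, and the long form in 4 of 7. In the NF-kappaB list 10 of 16 windows hold the long form. Over all 27305 genes with windows the long form is in 2.33% and the RELA form in 0.56%. TNFAIP3 holds 2 long-form sites, from -67 to -58 and from -55 to -46 counted from the start site, and CXCL8 holds its kappaB site from -91 to -83 and its AP-1 site from -137 to -131. Among genes that rose at least 2-fold 3.0% of 999 windows hold the long form, near the 2.83% of all tested genes with a window. Among those that fell at least 2-fold it is 1.72% of 872. A match is a description of letters and was not tested as a site.

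Several genes of the interleukin-1 family, mostly low, changed. Of 13 tested members, 8 rose and 3 fell, against 32.6% and 32.7% of all tested genes, and 10 more did not hold enough reads. Members such as IL1A, IL1B, IL1RL1 and IRAK3 were under 1 CPM in every vehicle library, and such genes reach the minimum of reads through the group where they are high, which tilts this count upward. IL1B, a secreted inflammatory cytokine, was at 0.222, 0.286 and 0.286 CPM under vehicle and 1.67, 2.48 and 2.34 CPM under FOLFIRINOX, and IL1A, which also acts inside the cell, at 0.334, 0.286 and 0.0572 CPM under vehicle and 2.57, 1.44 and 2.12 CPM under FOLFIRINOX. Both were under 1 CPM in all vehicle libraries and above 1 CPM in all drugged libraries, and rose by 3.01 ± 0.28 and 3.13 ± 0.41. IRAK2 and IRAK1, kinases downstream of the receptor, rose by 0.90 ± 0.064 and 0.73 ± 0.087. IL18 fell by 0.68 and the adaptor MYD88 by 0.57. IL6 held 11 reads over the 6 libraries and was not tested.

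In the interleukin-6 group 6 of 13 tested genes rose and 4 fell. IL11, a cytokine of this family, rose from 2.33 ± 0.392 to 15.99 ± 0.958 CPM. STAT3, the factor that the family's receptors activate, was at 648, 634 and 634 CPM under vehicle and 298, 304 and 282 CPM with the drug, with no overlap, and fell by 1.11. OSMR, the receptor of oncostatin M, fell by 0.96. Few interferon-stimulated genes rose: 3 of 31 tested did (9.68%, against 32.6% of all tested genes) and 12 fell (38.7%, against 32.7%), with a median of -0.31. IFIT1, which binds foreign RNA, fell from 16.1 ± 1.301 to 5.2996 ± 1.09 CPM, IFIT2 by 1.11 and STAT2, a subunit of the interferon-activated factor, by 1.05, whereas IRF7 rose from 3.21 ± 0.353 to 7.35 ± 1.23 CPM.

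Of 19 genes of MHC class I and peptide loading, 11 rose and 5 fell. HLA-B rose from 32.3 ± 4.14 to 73.9 ± 3.02 CPM and B2M by 0.44, whereas TAPBP, the tapasin chaperone, fell from 151 ± 8.79 to 60.97 ± 5.75 CPM. The HLA genes are close copies of each other, so their reads may be shared. In prostaglandin synthesis 6 of 13 tested genes rose and 2 fell. PTGS2, the inducible cyclooxygenase, was at 2.89, 3.39 and 3.204 CPM under vehicle and 9.002, 6.895 and 5.798 CPM under FOLFIRINOX. PLA2G4C, a phospholipase that frees fatty acids from membranes, was at 0.334, 0.286 and 0.401 CPM under vehicle and 7.97, 9.28 and 8.31 CPM under FOLFIRINOX, and no vehicle library reached 1 CPM. Complement C3 rose from 0.438 ± 0.284 to 4.77 ± 1.38 CPM and CD55, which shields cells from complement, from 15.02 ± 0.394 to 39.8 ± 3.26 CPM, in a group of coagulation and complement genes of which 5 of 16 rose and 3 fell.

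Ligands of the EGF receptor family mostly rose. Of 12 tested ligands and receptors, 8 rose and 2 fell, with a median of 1.01. Another 3 of the 15 listed did not hold enough reads. Genes as low under vehicle as TGFA can reach the minimum of reads through a group where they are high, which tilts this count upward. HBEGF was at 10.1, 10.9 and 11.2 CPM in the vehicle libraries against 48.2, 50.2 and 48.4 CPM in the FOLFIRINOX libraries. The groups stood clear of each other, and HBEGF rose by 2.18 ± 0.086 (edgeR adjusted p = 3.4e-12). TGFA, transforming growth factor alpha, was at 0.445, 0.812 and 0.629 CPM under vehicle and 8.87, 8.53 and 8.08 CPM under FOLFIRINOX and rose by 3.63 ± 0.18. AREG, amphiregulin, rose from 5.18 ± 0.633 to 15.3 ± 1.06 CPM and NRG1, neuregulin 1, from 33.9 ± 0.0944 to 75.5 ± 1.41 CPM. The receptor EGFR rose by 0.32, whereas ERBB2 fell by 1.22.

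Genes that the ERK kinases induce rose more often than they fell, 13 against 4 of 21. DUSP5, a nuclear ERK phosphatase, was at 28.8, 31.99 and 30.9 CPM under vehicle and 159, 201 and 185 CPM under FOLFIRINOX, with no overlap. FOSL1, an AP-1 subunit, rose from 62.5 ± 5.36 to 191 ± 24.2 CPM and ETV4 from 27.6 ± 3.12 to 53.8 ± 6.14 CPM, while SPRY1 and SPRY4, inhibitors of receptor signalling, fell by 1.25 and 0.67. Among AP-1 and early response factors, 17 of 22 rose and 3 fell, with a median of 0.62. ATF3, a stress-induced partner of JUN, was at 15.1, 15.2 and 16.9 CPM under vehicle and 82.8, 89.9 and 79.4 CPM under FOLFIRINOX, and MAFF, a small MAF protein, rose from 13.7 ± 2.002 to 60.2 ± 4.64 CPM. JUN was at 257 CPM under vehicle and had a change of 0.089 ± 0.068 that did not pass, though it did with total-count scaling, at 0.22 (edgeR adjusted p = 0.011), and the orphan receptor NR4A2 fell by 1.46. The AP-1 letters TGANTCA stand in 13.6% of the windows of genes that rose at least 2-fold, 7.11% of those that fell at least 2-fold and 7.40% of all tested genes with a window.

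**Figure D3:**
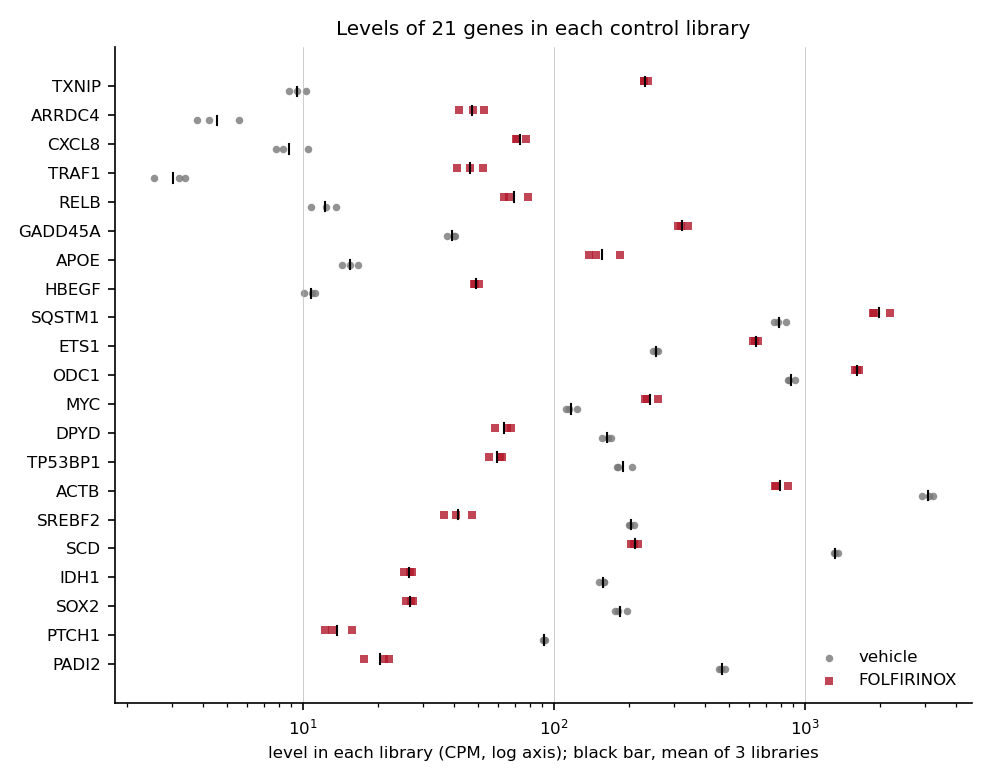
Levels of 21 genes in each of the 6 control libraries (CPM, log axis); grey circles are vehicle, red squares are FOLFIRINOX and black bars are means of 3 libraries. No vehicle library overlaps a FOLFIRINOX library for any of the 21 genes, which were chosen for the text after their values were known. The same holds for 67% of all tested genes.

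Genes of cholesterol synthesis fell with 1 exception. Its genes are switched on by SREBP2, the product of SREBF2, when sterols are short. Of 26 tested members, 25 fell, against 32.7% of all tested genes, 12 of them at least 2-fold, and 0 rose, with a median of -0.87. The member that did not pass was NSDHL, a sterol dehydrogenase, at -0.036 ± 0.081. SREBF2 was at 201, 198 and 209 CPM in the vehicle libraries against 36.5, 47.1 and 40.8 CPM in the FOLFIRINOX libraries. All drugged libraries were under 50 CPM and all vehicle libraries near 200 CPM, and SREBF2 fell by 2.27 (edgeR adjusted p = 1.6e-12).

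The fall ran from the start of the pathway to its end. HMGCS1, which makes HMG-CoA, was at 188, 203 and 193 CPM under vehicle and 64.6, 59.97 and 71.03 CPM under FOLFIRINOX and fell by 1.58. LSS, which closes the sterol rings, and DHCR7, which carries out a late reduction, fell by 2.05 and 2.04. Control and transport genes fell as well. INSIG1, which holds SREBP back in the endoplasmic reticulum, was at 94.97, 96.5 and 98.99 CPM under vehicle and 17.9, 19.8 and 19.1 CPM under FOLFIRINOX, with no overlap between groups. STARD4, a sterol carrier, fell from 29.8 ± 4.05 to 3.395 ± 0.595 CPM.

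SREBF2 is itself among the genes that SREBP reads, and its window holds a sterol regulatory element, searched as TCACNCCAC on both strands and present in 1.39% of all genes' windows. The 250 bases before the start site of SREBF2 are printed with those of HMGCS1, in whose window these letters were not found. Capitals mark the sterol element and the CCAAT boxes, which NF-Y binds. The letters of the 2 motifs share CCA and did not overlap here.
SREBF2 (chr22:41832855-41833104, plus strand): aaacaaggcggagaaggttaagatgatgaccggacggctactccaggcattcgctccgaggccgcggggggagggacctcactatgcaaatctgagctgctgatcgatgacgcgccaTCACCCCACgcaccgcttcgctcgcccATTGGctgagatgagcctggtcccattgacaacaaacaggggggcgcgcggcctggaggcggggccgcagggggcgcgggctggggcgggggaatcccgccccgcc
HMGCS1 (chr5:43313413-43313662, minus strand): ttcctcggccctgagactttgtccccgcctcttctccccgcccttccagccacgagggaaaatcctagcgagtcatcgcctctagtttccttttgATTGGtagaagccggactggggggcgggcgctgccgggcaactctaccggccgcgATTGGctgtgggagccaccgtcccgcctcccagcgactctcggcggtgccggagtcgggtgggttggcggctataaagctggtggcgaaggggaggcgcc

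In SREBF2 the element lies from -133 to -125 and the CCAAT box, on the other strand, from -106 to -102. HMGCS1 holds CCAAT boxes from -155 to -151 and from -100 to -96. Of 20 tested cholesterol genes with a window, 16 hold a CCAAT box (80%), against 43.4% of tested genes, and 1 holds the sterol element.

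Fatty acid synthesis genes mostly fell too. Of 24 tested members, 18 fell and 2 rose, with a median of -0.51. SCD, the desaturase that makes oleic acid and the most abundant gene of the list, was at 1349, 1315 and 1305 CPM in the vehicle libraries against 204, 209 and 217 CPM in the FOLFIRINOX libraries. The drugged libraries held less than the vehicle libraries by far, and SCD fell by 2.66 (edgeR adjusted p = 9.2e-15). SREBF1, which encodes the SREBP that drives this list, was at 116, 110.3 and 129.8 CPM under vehicle and 14.8, 19.2 and 13.6 CPM under FOLFIRINOX and fell by 2.88. ACACA, acetyl-CoA carboxylase, fell from 406 ± 14.3 to 133 ± 2.68 CPM, FASN, fatty acid synthase, from 310.4 ± 12.8 to 127 ± 16.4 CPM and ACLY, which supplies acetyl-CoA, from 468 ± 2.49 to 223 ± 6.55 CPM. ACSL5, an acyl-CoA synthetase, and the elongase ELOVL7 were the members that rose, by 1.59 ± 0.26 and 1.29 ± 0.13.

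**Figure D4:**
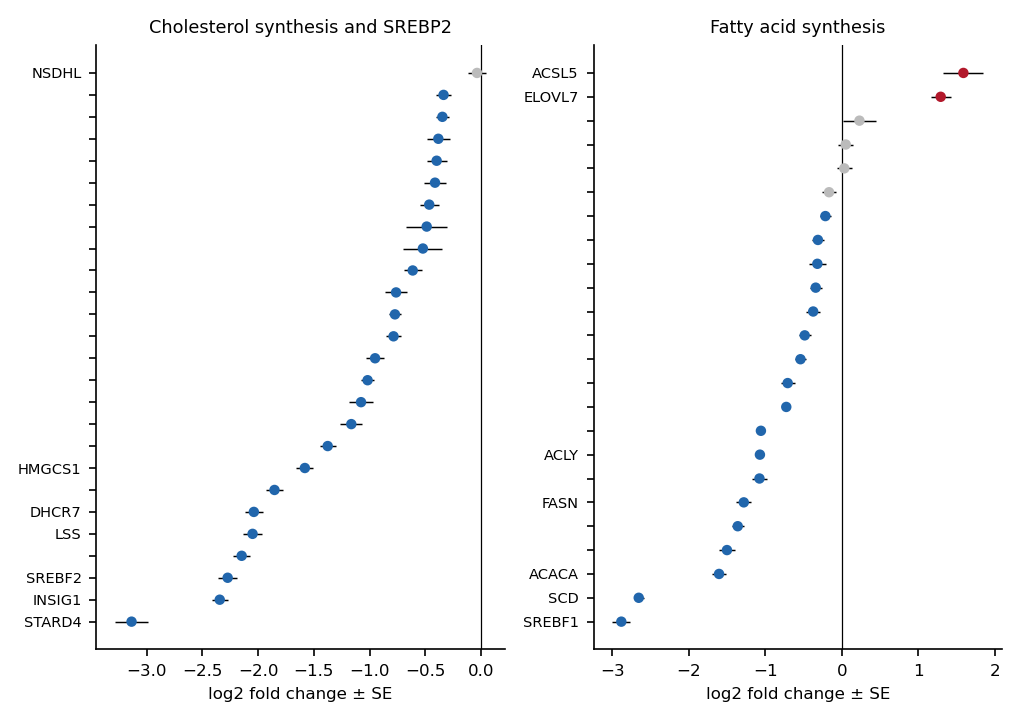
Log2 fold change ± SE of each tested gene of cholesterol synthesis and SREBP2 control (left, 26 genes) and of fatty acid synthesis (right, 24 genes); blue genes fell, red genes rose and grey genes did not pass, and names are given for the genes described in the text. On the left 25 of 26 genes lie below 0 and passed, with STARD4, INSIG1 and SREBF2 lowest, and on the right SREBF1 and SCD are lowest.

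Lipid storage and efflux genes did not share that direction. APOE, the apolipoprotein that carries cholesterol out of cells, was at 15.5, 14.3 and 16.7 CPM in the vehicle libraries against 148, 183 and 137 CPM in the FOLFIRINOX libraries. The lowest drugged library was several times the highest vehicle library, and APOE rose by 3.34 ± 0.10 (edgeR adjusted p = 2.3e-13). PLIN2, the coat protein of lipid droplets, rose from 2.61 ± 0.184 to 18.05 ± 1.06 CPM, and MGLL, which splits monoglycerides, from 1.02 ± 0.139 to 11.5 ± 2.22 CPM. NPC1 and NPC2, which release cholesterol from lysosomes, rose by 0.83 ± 0.065 and 0.71 ± 0.076. ABCA1, a cholesterol exporter, rose by 0.50, whereas ABCG1 fell by 1.30. Of 13 tested genes of sterol efflux and the liver X receptor, 5 rose and 4 fell.

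TXNIP was the most changed gene among those above 100 CPM with the drug. It encodes an alpha-arrestin that binds thioredoxin and removes glucose carriers from the cell surface (ENSG00000265972.6, GRCh38 chromosome 1, 145992435 to 145996579). Its level was 9.45, 8.78 and 10.3 CPM in the vehicle libraries against 229, 238 and 228 CPM in the FOLFIRINOX libraries, a change of 4.61 ± 0.077 (edgeR adjusted p = 1.3e-16). ARRDC4, its close relative, was at 3.78, 5.59 and 4.23 CPM under vehicle and 47.6, 41.8 and 52.5 CPM under FOLFIRINOX and rose by 3.33 ± 0.12, and ARRDC2 rose by 1.26 ± 0.12. ARRDC3, another alpha-arrestin, fell by 0.69. Of 18 alpha-arrestin and glucose sensing genes, 6 rose and 7 fell. MLXIP, which encodes MondoA, had a change of -0.15 ± 0.079 that did not pass, though it did without FOLFIRINOX library 2, at -0.24 (edgeR adjusted p = 0.011). HK2, a hexokinase, rose from 46.2 ± 1.65 to 90.9 ± 6.98 CPM, whereas SLC2A12, a glucose carrier, fell from 96.6 ± 2.67 to 15.1 ± 0.183 CPM.

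The carbohydrate response element through which MondoA acts, searched on both strands as CACGNG, any 5 bases and CACGNG again, was found in the windows of 20 of 27305 genes (0.0732%), TXNIP among them. It lies from -88 to -72 before the start site and is printed in capitals as the sequence best known for this gene's control.
TXNIP (chr1:145996580-145996829, minus strand): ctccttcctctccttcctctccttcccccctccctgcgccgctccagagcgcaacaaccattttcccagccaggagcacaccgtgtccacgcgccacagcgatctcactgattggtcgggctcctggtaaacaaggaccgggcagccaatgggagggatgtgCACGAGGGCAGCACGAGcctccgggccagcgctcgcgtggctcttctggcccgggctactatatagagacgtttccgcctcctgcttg
The window of ARRDC4 does not hold these exact letters, which says nothing about sites outside it or of other spelling.

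NADPH supply and NRF2 genes leaned downward. NRF2, encoded by NFE2L2, switches on antioxidant genes, and its own transcript had a change of -0.028 ± 0.10 that did not pass. Of 21 tested members, 11 fell, 7 of them at least 2-fold, and 3 rose, with a median of -0.37. PIR, an iron-binding nuclear protein, was at 93.7, 93.2 and 101 CPM under vehicle and 8.102, 8.63 and 8.47 CPM under FOLFIRINOX. NQO1, a quinone reductase, fell from 369 ± 15.5 to 165 ± 8.01 CPM and SLC7A11, the cystine carrier, from 121 ± 16.7 to 58.9 ± 11.4 CPM. HMOX1, heme oxygenase 1, went the other way, from 37.2 ± 1.64 to 99.2 ± 10.5 CPM. In a list of pentose phosphate and NADPH genes that was added after values were seen, 10 of 14 fell and 1 rose. IDH1, the cytosolic isocitrate dehydrogenase, was at 152, 159 and 159 CPM in the vehicle libraries against 26.6, 25.3 and 27.2 CPM in the FOLFIRINOX libraries, with narrow groups far apart, and fell by 2.57 (edgeR adjusted p = 2.6e-14). TKT and PGD, enzymes of the pentose phosphate pathway, fell by 1.37 and 1.22.

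Of 16 genes of iron handling and lipid peroxidation, 5 rose and 7 fell (31.2% and 43.8%), against 32.6% and 32.7% of all tested genes. AIFM2, the ferroptosis suppressor FSP1, was at 5.34, 4.87 and 5.61 CPM under vehicle and 0.643, 0.645 and 0.502 CPM under FOLFIRINOX and fell by 3.14. TFRC, the transferrin receptor, fell from 786 ± 42.2 to 353 ± 28.6 CPM, HFE, its binding partner in iron sensing, from 29.2 ± 1.93 to 3.96 ± 0.586 CPM and GPX4 by 0.37, while FTL, ferritin light chain, rose from 293 ± 29.3 to 559.8 ± 76.5 CPM. Aldehyde dehydrogenases fell more often than they rose, 12 against 2 of 17 tested aldehyde-oxidising genes. ALDH3A2, which clears fatty aldehydes, fell from 334 ± 0.687 to 115 ± 3.1004 CPM and ALDH1A3, which makes retinoic acid, from 38.3 ± 2.51 to 12.6 ± 1.22 CPM. AOX1, aldehyde oxidase, was the large exception, at 0.111, 0.191 and 0.401 CPM under vehicle and 8.23, 8.58 and 8.36 CPM under FOLFIRINOX.

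All 4 tested peptidylarginine deiminase genes fell, with PADI6 not tested. These enzymes turn arginine into citrulline in proteins. PADI2 was at 461, 455 and 482 CPM in the vehicle libraries against 22.1, 21.1 and 17.5 CPM in the FOLFIRINOX libraries, the largest fall of any protein-coding gene that reached 5 CPM in a control library, at -4.54 ± 0.083. PADI3, its neighbour on chromosome 1, was at 28.9, 24.2 and 29.6 CPM under vehicle and 3.601, 2.08 and 2.56 CPM under FOLFIRINOX and fell by 3.42, and PADI1 fell by 0.89. Polyamine, purine and NAD genes were split, with 8 of 19 higher and 8 lower. OAZ1, the antizyme that destroys ornithine decarboxylase, fell from 365 ± 25.3 to 159 ± 13.7 CPM while ODC1 rose. VNN1, a pantetheinase, was at 0.111, 0.191 and 0.286 CPM under vehicle and 5.92, 7.29 and 10.2 CPM under FOLFIRINOX, and AMPD3, which deaminates AMP, rose from 0.652 ± 0.2797 to 6.76 ± 0.239 CPM.

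Of 23 tested genes of the integrated stress response and ATF4, 6 rose and 9 fell (26.1% and 39.1%), not far from the 32.6% and 32.7% of all tested genes, though single members had large changes. DDIT3, which encodes CHOP, was at 29.7, 28.1 and 32.2 CPM under vehicle and 149, 168 and 141 CPM under FOLFIRINOX and rose by 2.35 ± 0.095, and PPP1R15A, GADD34, which reverses the block of translation, was at 22.6, 21.1 and 27.5 CPM under vehicle and 128, 154 and 135 CPM under FOLFIRINOX. Neither overlapped between groups. The serine synthesis enzymes that ATF4 also drives fell: PSAT1 fell from 313 ± 8.71 to 110.5 ± 3.69 CPM and PHGDH from 112 ± 9.38 to 40.005 ± 5.72 CPM. SLC7A5, the leucine carrier, fell by 1.29, and DDIT4, an inhibitor of mTORC1, was at 47.8, 44.9 and 52.2 CPM under vehicle and 11.6, 14.8 and 13.2 CPM under FOLFIRINOX and fell by 1.85. RRAGD, a GTPase that recruits mTORC1 to lysosomes, rose from 3.74 ± 0.317 to 32.3 ± 1.93 CPM. Of 19 amino acid and nucleoside carriers, 12 fell and 5 rose.

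Chaperones of the endoplasmic reticulum leaned downward, with 13 of 21 lower and 3 higher. HSP90B1, GRP94, fell from 797 ± 38.6 to 464 ± 59.95 CPM, PDIA4 by 0.84 and HSPA5, BiP, by 0.52, whereas CANX, calnexin, rose by 0.36. Of 18 heat shock genes 9 fell and 3 rose. HSPA1A and HSPA1B, inducible HSP70 genes that are near-identical copies and so uncertain one by one, fell by 1.90 and 1.62, and the co-chaperone BAG3 fell from 369 ± 31.3 to 198 ± 14.7 CPM. DNAJB4 rose by 1.15 ± 0.12. In lysosome and autophagy genes 10 of 25 rose and 7 fell, with SQSTM1 and the sialidase NEU1 at 1.32 ± 0.065 and 1.30 ± 0.083 and the autophagy kinase ULK1 at -1.27 ± 0.11. Of 22 hypoxia and glycolysis genes 7 rose and 9 fell. EPAS1, HIF-2 alpha, rose from 11.7 ± 1.63 to 29.99 ± 1.52 CPM and NDRG1 from 8.76 ± 0.289 to 26.7 ± 1.704 CPM, while PGK1, a glycolytic enzyme, fell from 526 ± 27.99 to 359 ± 7.25 CPM.

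Genes of ribosome biogenesis mostly rose. MYC drives much of this programme. Of 29 genes of MYC and ribosome biogenesis, 22 rose and 3 fell, and only MYC passed a 2-fold change, with a median of 0.54. MYC was at 112, 115 and 124 CPM under vehicle and 232, 259 and 235 CPM under FOLFIRINOX, with no overlap. UTP4 and WDR43, parts of the small-subunit processome, rose by 0.97 ± 0.061 and 0.83 ± 0.057, and NOP56, a core protein of box C/D snoRNPs, from 160.4 ± 4.14 to 269.6 ± 6.12 CPM. UBTF, a factor of RNA polymerase I, fell by 0.51. The E-box CACGTG reads the same on both strands and is a binding site of MYC. It stands in 9 of 22 windows of these genes (40.9%), against 12.3% of tested genes and 8.77% of all genes with windows. Windows include 50 bases after the start site, and the E-box of WDR43 lies there, from 3 to 8.

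Hosts of small nucleolar RNAs rose as well, with 11 of 17 higher and 3 lower and a median of 0.70. SNHG1 was at 172, 162 and 174 CPM in the vehicle libraries against 552, 566 and 551 CPM in the FOLFIRINOX libraries. SNHG12 rose from 21.4 ± 1.22 to 67.002 ± 1.38 CPM and GAS5 from 168 ± 4.33 to 272 ± 2.53 CPM, whereas SNHG19 fell by 1.14. Splicing genes leaned downward. Of 25 tested, 15 fell and 4 rose, with a median of -0.37. SRSF2, an SR protein, was at 404, 401 and 426 CPM under vehicle and 193, 201 and 196 CPM under FOLFIRINOX, and HNRNPA1 and SRSF1 fell by 0.98 and 0.95. The CLK kinases, which phosphorylate SR proteins, split: CLK4, CLK3 and CLK1 rose by 0.70 ± 0.13, 0.73 ± 0.085 and 0.46 ± 0.11, and CLK2 fell by 0.68.

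Of 28 chromatin writers and erasers, 16 fell and 4 rose. HDAC9, a class IIa deacetylase, was at 43.6, 46.1 and 39.5 CPM in the vehicle libraries against 266, 248 and 282 CPM in the FOLFIRINOX libraries. It was the only gene of the list to rise at least 2-fold, by 2.62 ± 0.082 (edgeR adjusted p = 2.4e-13). TET1, which oxidises methylcytosine, and HDAC5 fell by 1.20 and 1.17.

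Most messenger transcripts of the mitochondrial genome fell. Of its 13 protein-coding genes, 12 fell and 1 rose, with a median of -0.70. MT-ND1, the gene next to the ribosomal RNAs on the same strand, was the one that rose, by 0.25 ± 0.063 from 2370.2 ± 75.4 to 2812 ± 83.9 CPM. MT-CO2, a subunit of complex IV, fell from 5192 ± 290.3 to 2427 ± 102 CPM, MT-ATP6 from 2687 ± 72.2 to 1492 ± 29.2 CPM and MT-ND4, the most abundant, from 9607 ± 103 to 5908 ± 83.99 CPM. Nuclear copies of these genes can take some of their reads. Of 26 nuclear genes of the respiratory chain, 5 rose and 12 fell, none past a 2-fold change.

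Cytoskeletal genes beyond ACTB and TUBB were looked at in lists that were added after values had been seen, so their counts are a description only. Of 26 actin, myosin and focal adhesion genes, 17 fell and 2 rose. VCL, vinculin, was at 729.7, 736 and 747 CPM under vehicle and 318, 324 and 324 CPM under FOLFIRINOX, and CNN2, calponin 2, fell from 171 ± 8.25 to 64.4 ± 6.42 CPM, whereas TPM1, a tropomyosin, rose from 130.0 ± 4.27 to 236 ± 2.44 CPM. Of 19 tubulin and microtubule-binding genes, 14 fell and 3 rose. TUBA1A fell from 302 ± 19.2 to 104 ± 9.35 CPM and MAP1A, which stabilises microtubules, was at 29.5, 32.99 and 30.04 CPM under vehicle and 2.19, 2.48 and 2.56 CPM under FOLFIRINOX, while TUBB2B, another beta-tubulin, rose from 3.33 ± 0.714 to 15.8 ± 1.53 CPM.

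In the TGF-beta and BMP list 8 of 23 rose and 8 fell, 34.8% each way and so near the 32.6% and 32.7% of all tested genes. TGFBI, an extracellular TGF-beta target, rose from 1.56 ± 0.532 to 5.49 ± 0.182 CPM, and INHBA, an activin subunit, from 2.12 ± 0.249 to 6.97 ± 1.39 CPM, whereas the BMP targets SMAD6 and ID1 fell by 1.63 and 1.52. Of 19 Wnt genes 6 rose and 7 fell, again near those shares, with WNT5A, a noncanonical ligand, at 6.67, 9.17 and 6.81 CPM under vehicle and 1.29, 1.89 and 1.62 CPM under FOLFIRINOX. In the Notch list 8 of 18 rose and 4 fell. HEY1 rose by 1.30 ± 0.27 and the ligand JAG1 from 38.7 ± 1.84 to 66.9 ± 4.97 CPM, whereas LFNG, which adds sugar to Notch, fell by 2.34. In the YAP list 9 of 19 rose and 7 fell, with CCN1 up from 96.8 ± 5.203 to 212 ± 7.74 CPM and WWTR1, which encodes TAZ, down from 721 ± 21.3 to 278 ± 16.8 CPM.

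Hedgehog genes fell in the main. Ligands of this pathway bind PTCH1, which frees SMO to activate the GLI factors, and PTCH1 and GLI1 are targets of the pathway themselves. PTCH1 was at 90.4, 91.9 and 91.03 CPM in the vehicle libraries against 13.1, 12.3 and 15.7 CPM in the FOLFIRINOX libraries, with no overlap, and fell by 2.73 (edgeR adjusted p = 3.2e-13). GLI2 fell from 28.7 ± 1.34 to 6.53 ± 1.57 CPM, GLI1 from 41.3 ± 3.05 to 12.2 ± 1.73 CPM and SMO from 24.8 ± 2.12 to 5.77 ± 0.486 CPM, whereas the ligand SHH rose from 1.61 ± 0.532 to 4.78 ± 0.273 CPM. In the list, added after values were seen, 7 of 13 fell, all of them at least 2-fold, and 3 rose. Axon guidance genes fell more widely: of 28 tested, 21 fell, 11 at least 2-fold, and 5 rose, with a median of -0.69. SEMA3F, a secreted semaphorin, was at 20.5, 18.6 and 19.97 CPM under vehicle and 3.09, 2.53 and 2.12 CPM under FOLFIRINOX, SLIT3, a ligand of ROBO receptors, fell from 12.3 ± 0.791 to 2.56 ± 0.572 CPM and NTN1, netrin 1, from 65.7 ± 3.25 to 22.5 ± 3.14 CPM. UNC5A, a netrin receptor outside that list, fell from 18.8 ± 0.975 to 2.22 ± 0.887 CPM, and SEMA7A rose by 1.09 ± 0.12.

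Factors that set cell identity moved both ways. SOX2, a stem cell and foregut factor, was at 175, 179.5 and 196 CPM in the vehicle libraries against 27.4, 27.1 and 25.7 CPM in the FOLFIRINOX libraries, with the groups far apart, and fell by 2.78 (edgeR adjusted p = 7.6e-14). SOX4 fell from 321 ± 26.9 to 127 ± 13.3 CPM, and GRHL3, an epithelial factor, from 5.31 ± 0.448 to 0.632 ± 0.177 CPM. KLF4 and GATA6, a factor of the classical pancreatic tumour type, rose by 1.40 ± 0.099 and 1.20 ± 0.12, and SOX9 by 0.69. LMO2, known from blood cell and endothelial programmes, was at 0.445, 0.4297 and 0.401 CPM under vehicle and 6.43, 6.35 and 6.63 CPM under FOLFIRINOX. Of 16 tested lineage factors, 6 rose and 4 fell.

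Of 7 tested keratins, 4 rose and 3 fell. KRT18 was at 163, 161 and 189 CPM under vehicle and 358, 386 and 359 CPM under FOLFIRINOX and its partner KRT8 rose from 31.8 ± 2.87 to 58.6 ± 6.89 CPM, whereas KRT15 and KRT80 fell by 0.83 and 1.27. Of 18 junction genes 5 rose and 6 fell, near the shares of all genes. JUP, plakoglobin, was at 145, 141 and 167 CPM under vehicle and 27.9, 30.6 and 23.2 CPM under FOLFIRINOX and fell by 2.47, CDH3, P-cadherin, fell from 67.7 ± 1.46 to 23.5 ± 2.399 CPM, and DSP, desmoplakin, rose from 21.5 ± 1.6004 to 54.5 ± 5.33 CPM. Among mesenchymal genes, 5 of 13 rose, 1 of them at least 2-fold, and 6 fell, 2 of them at least 2-fold, with a median of 0.24. Changes in the list ran from -1.58 to 6.40, and with members on both sides it did not move as a block. SNAI1 and ZEB1 were among those that rose, by 0.62 and 0.50.

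In the matrix, 6 of 21 collagen, laminin and fibronectin genes rose and 10 fell. LAMA5 fell from 120.0 ± 4.28 to 24.8 ± 4.49 CPM and TNC, tenascin C, from 158 ± 5.897 to 64.8 ± 2.57 CPM, whereas COL17A1, a hemidesmosome collagen, rose from 2.52 ± 0.841 to 13.6 ± 0.459 CPM. Integrins leaned downward, 9 against 3 of 15, with ITGB8 down from 31.9 ± 2.99 to 6.03 ± 0.724 CPM and ITGB4 by 2.11, while ITGB3 rose by 1.55 ± 0.14. Of 16 matrix protease and plasminogen genes 8 rose and 5 fell. MMP1, an interstitial collagenase, rose from 11.6 ± 0.867 to 40.7 ± 1.24 CPM, and SERPINE2, a protease inhibitor, from 3.72 ± 0.744 to 20.3 ± 0.4102 CPM, and TIMP2 fell from 169 ± 8.37 to 68.4 ± 2.63 CPM.

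Of 18 tested clock genes, 9 rose, 5 at least 2-fold, and 4 fell. NR1D1, the repressor REV-ERB alpha, was at 5.67, 7.54 and 8.07 CPM under vehicle and 20.1, 27.1 and 22.2 CPM under FOLFIRINOX. NFIL3, a clock-controlled repressor, rose from 19.8 ± 0.648 to 42.3 ± 0.812 CPM and CRY1, a cryptochrome of the core loop, from 38.7 ± 1.33 to 65.4 ± 4.55 CPM.

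**Figure D5:**
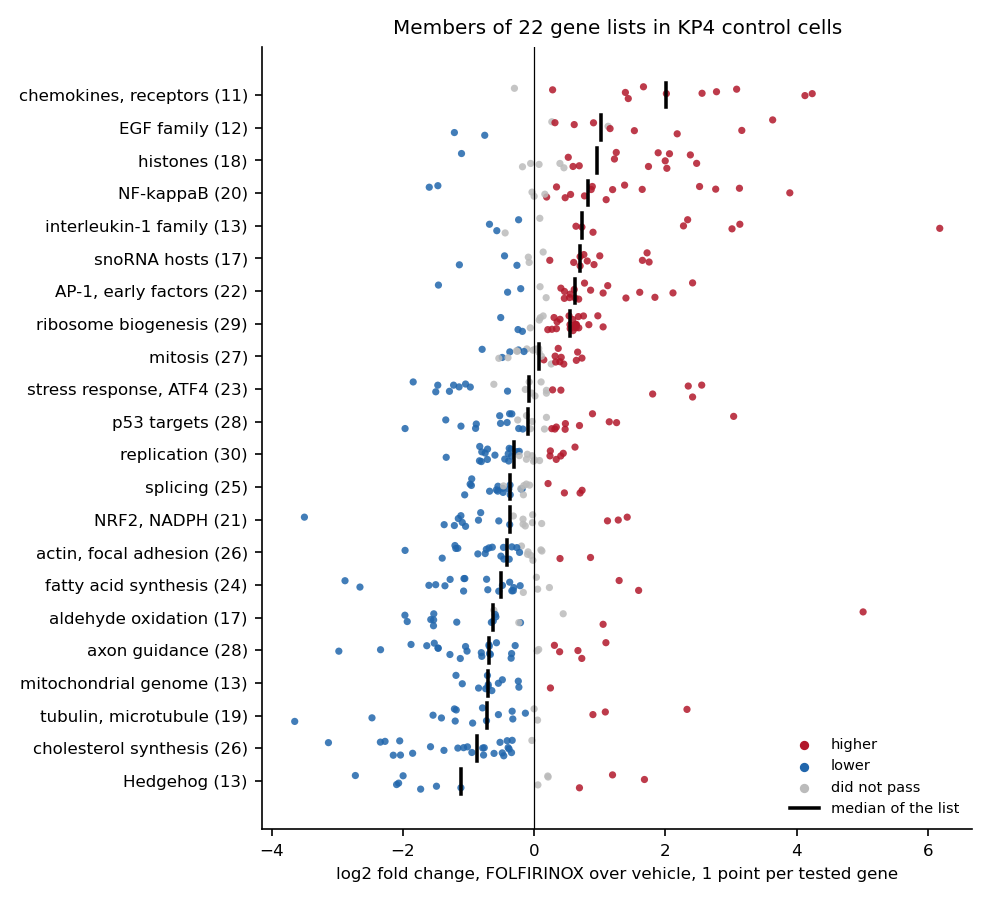
Log2 fold change of every tested member of 22 of the 62 gene lists, 1 point per gene; red genes rose, blue genes fell, grey genes did not pass, and black bars are list medians. Chemokines have the highest median at 2.01 and Hedgehog genes the lowest at -1.12; the actin, tubulin and Hedgehog lists were added after values were seen.

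Further genes with large folds belong to no list above. Of those that rose, CD24, a surface protein, went from 0.919 ± 0.105 to 8.83 ± 0.552 CPM, TGM2, a transglutaminase that crosslinks proteins, was at 4.003, 3.68 and 3.78 CPM under vehicle and 22.9, 29.8 and 25.9 CPM under FOLFIRINOX, and NDRG4 rose from 1.64 ± 0.217 to 14.4 ± 0.415 CPM. QPCT, which forms pyroglutamate on chemokines and other peptides, was at 3.11, 2.39 and 3.38 CPM under vehicle and 19.8, 20.5 and 20.9 CPM under FOLFIRINOX. PTPRZ1, a receptor phosphatase, rose from 0.877 ± 0.151 to 6.27 ± 0.899 CPM and GAB3, an adaptor, from 0.868 ± 0.284 to 6.78 ± 0.619 CPM. Of those that fell, NTSR1, the neurotensin receptor, was at 236, 226 and 255 CPM in the vehicle libraries against 23.1, 32.2 and 23.7 CPM in the FOLFIRINOX libraries. THSD7A fell from 75.7 ± 7.79 to 10.6 ± 0.8504 CPM, MGAT5B, a glycosyltransferase, from 38.2 ± 3.53 to 5.63 ± 1.33 CPM, and VASH2, a tubulin carboxypeptidase, from 14.7 ± 1.04 to 2.17 ± 0.429 CPM. CACNG4, an auxiliary subunit of ion channels, fell from 24.2 ± 1.88 to 3.28 ± 0.916 CPM, DNM1, dynamin 1, from 17.1 ± 0.921 to 3.11 ± 1.27 CPM and KCNAB2 from 17.2 ± 0.542 to 2.78 ± 0.2004 CPM. Vehicle and drugged libraries did not overlap for any gene of this paragraph, but these genes were chosen for large folds. The same was true of 67% of all tested genes.

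The response was then set against that of E5 cells by the difference of the log2 changes in the same edgeR fit, in which 25.7% of tested genes passed. The main genes above were chosen for their response in control cells, which favours a larger value there. CXCL8 rose by 3.08 ± 0.097 in control and 0.56 ± 0.099 in E5 cells, a difference of 2.53 ± 0.14 (edgeR adjusted p = 7.4e-09). TGFA differed by 3.01 ± 0.22 and GADD45A by 1.77 ± 0.11, both larger in control cells (edgeR adjusted p = 1.3e-07 and 1.2e-08). SOX2 changed by -2.78 ± 0.078 in control and -0.86 ± 0.073 in E5 cells, a difference of -1.93 ± 0.11 (edgeR adjusted p = 7.4e-09). ACTB differed by -1.16 ± 0.088, at -0.81 ± 0.062 in E5 cells (edgeR adjusted p = 1.7e-07). DPYD, which fell in control cells, was at -0.012 ± 0.073 in E5 cells, a difference of -1.35 ± 0.10 (edgeR adjusted p = 1.9e-07).

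Other genes differed by less. SREBF2 fell in both, with -1.70 ± 0.082 in E5 cells and a difference of -0.57 ± 0.11 (edgeR adjusted p = 0.0018). ODC1 rose more in E5 cells, by 1.12 ± 0.052, with a difference of -0.25 ± 0.072 (edgeR adjusted p = 0.018), and HDAC9 did as well, at 3.12 ± 0.094 and -0.50 ± 0.12 (edgeR adjusted p = 0.007).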

How the data were processed

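RNA from KP4 cells was sequenced after mRNA library preparation, per the labels' protocols, and STAR 2.5.1b, GRCh38 and Trimmomatic are named in the submitters' processing notes. Raw stranded read counts per gene were deposited by the authors for 12 libraries, with summary rows for unmapped, multimapping, featureless and ambiguous reads that were left out of library sizes. Multimapping reads were 10.8% to 12.8% in the control libraries. The authors also deposited FPKM values and log2-scale rlog values, per the file headers, used here only as alternatives.

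Genes were kept by edgeR's filterByExpr (edgeR 4.0.16, R 4.3.3), scaled by TMM and fitted with 1 mean per group over all 12 libraries, which share 1 estimate of spread (a biological coefficient of variation of 7.37%). FOLFIRINOX was set against vehicle in control cells by the quasi-likelihood test, and the difference from E5 cells by the interaction contrast. The SE is the absolute log2 fold change over the root of F. It is approximate for genes with few counts in a group, where it may be too small. For IL1RL1 it was 0.33 in control and 0.28 in E5 cells but 0.71 for their difference. On data simulated from this comparison, over 15145 genes, 74.6% of genes changed 1.5-fold, 94.0% of those changed 2-fold and 100% of those changed 4-fold were recovered, with 10 false calls. Few genes were changed there, up and down alike and all above 1 CPM, with the same spread for every gene. In the real data 65.3% of tested genes passed, so these shares may not carry over. Alternatives used RLE factors, total counts, DESeq2 1.42.0, no low-count filter, control libraries alone, a replicate block, each library left out, and limma 3.58.1 on log2(FPKM + 1), log2(FPKM + 0.1) and rlog.

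Gene lists and members were chosen with earlier results of these data known, so no list is independent evidence of its direction. Named genes were the 30 highest and 30 lowest protein-coding folds and the 8 highest and 8 lowest noncoding folds among genes that passed and reached 5 CPM, the 15 largest rises and falls in CPM, the 5 largest folds of each list at a mean of 1 CPM or more, and a fixed set of drug, p53, NF-kappaB and lipid genes. Genes named outside that rule were chosen after their values were seen: ABCA1, ACLY, ALDH3A2, ARRDC3, ATF4, ATM, B2M, BCL3, CCL2, CDH1, CLK1, CLK2, CLK4, CNN2, CXCL2, DHCR7, EGFR, ELOVL7, EPCAM, FASN, FTL, GAS5, GATA6, GDF15, GLI1, GLI2, GPX4, H1-10, HK2, HMGCS1, HSPA5, IL18, IRAK1, IRAK3, JUN, KRT15, KRT19, MLXIP, MUC1, MYD88, NFE2L2, NFKB1, NPC2, NSDHL, PGK1, PHGDH, PSAT1, PTPRC, SEMA7A, SHH, SMO, SOX9, SPRY4, TNFAIP3, TNFRSF10A, TPM1, TUBA1A, TUBB2B, UBTF, VCL and VIM. Promoter windows came from RefSeq, GRCh38.p14, and held 250 bases before the start site and 50 after it, 300 in all. Of 15636 tested genes, 10874 matched by symbol. Printed sequences give only the 250 bases before the start site. Where a gene had several windows, the one with the most motif matches was taken.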

Additional observations from a re-analysis of the deposited data

Results flagged for a closer look

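The drug response differed between control and E5 cells for 13 of 20 genes by the test of the difference in edgeR's fit. Of all tested genes, 25.7% passed that test. The 20 were the 10 highest and 10 lowest folds in control cells among protein-coding genes that passed and reached 5 CPM in a control library. Low genes with larger folds were not looked at in this way. Those 20 were chosen for their control response, which favours a larger value there. Genes that rose more in control cells were DACT1, an inhibitor of Wnt signalling, by a difference of 3.04 on the log2 scale, PLA2G4C by 2.96, VNN1 by 2.82, RRAD, a small GTPase of the RGK family, by 2.54, PRLR, the prolactin receptor, by 2.24, AOX1 by 1.98 and TXNIP by 1.83. Genes that fell more in control cells were SNED1, an extracellular matrix protein, at -2.88, PADI2 at -2.59, PIR at -2.24, MAP1A at -2.15, NTSR1 at -1.65 and STARD4 at -1.49. The edgeR adjusted p of these 13 differences ran from 1.6e-10 to 0.0092. For the other 7 the difference did not pass, IL1RL1 among them at 2.04 ± 0.71 (edgeR adjusted p = 0.055).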

How the results depend on the processing

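Of 5094 genes higher and 5109 lower, leaving out 1 library gave 4676 to 4920 and 4739 to 5040, and of 1833 and 1280 changed at least 2-fold it gave 1814 to 1902 and 1269 to 1419. The authors' FPKM gave 2949 lower genes on log2(FPKM + 1) and 2943 on log2(FPKM + 0.1). Genes at least 2-fold higher numbered 975 on log2(FPKM + 1) and 332 on rlog values, and those at least 2-fold lower 337, 740 and 225 on log2(FPKM + 1), log2(FPKM + 0.1) and rlog values. A pseudocount and the rlog step shrink the folds of low genes by construction. The median of genes spanning 200 kb and over, -0.167, was 0.047 on log2(FPKM + 1).

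For columns with the same number, deviations from the group means correlated at 0.087, -0.506 and -0.508. Deviations from a mean of 3 libraries are tied to each other, so these values do not show whether same-numbered columns were handled together. The replicate block gave 4973 higher and 5015 lower genes. Columns of different number correlated from -0.308 to 0.571, highest for vehicle library 3 with FOLFIRINOX library 2. What these libraries share was not tested. For named genes, direction was compared only where a gene passed in the main fit or the alternative, and none reversed there. Of 298 named genes that were tested, 288 kept their call under every alternative, and their direction wherever they passed. The others that the text gives a change for, CES2, JUN, MLXIP and MTCO2P12, have their values beside their results. Gene lists were less stable. Over lists and alternatives, 757 medians stayed within the spread of replicates and 173 moved further. Counts of lower members stayed near their size in 870 cases, were smaller in 59 and larger in 1. Counts of higher members did so in 896, with 7 smaller and 27 larger. Depth limits low genes most: the vehicle and FOLFIRINOX libraries numbered 1 hold 9230058 and 7359034 gene reads, fewer than the others.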
